A study of Mus musculus with 3 samples.

Results

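Fatty acid oxidation and ketone metabolism were followed through 33 genes, which are listed by name and were all found among the 32285 genes of the deposited matrices. They include the nuclear receptor Ppara, enzymes and carriers of fatty acid breakdown, the ketone enzyme Bdh1 and genes known to respond to Ppara. Single-nuclei RNA sequencing (sNuc-Seq) was carried out on frozen liver of 1 mouse on a normal diet (ND) and 2 mice with fibrosis related to metabolic dysfunction-associated steatohepatitis (MASH), STZ-HFHC 1 and STZ-HFHC 2. The mice were male C57BL/6 J, and each gave 1 library. The STZ-HFHC mice received 0.2 mg of streptozocin (STZ), a toxin of the insulin-producing beta cell, at 3 days of age. From 4 weeks of age they ate a diet rich in fat and cholesterol (HFHC). The model therefore joins a chemical injury with a diet, and no mouse with only one of them was analysed here. The ND label opens with another code than both STZ-HFHC labels, and what the codes stand for is not stated. Condition and any batch they mark cannot be told apart.

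In the fasting liver, fatty acids are activated to acyl-CoA, carried across the mitochondrial membrane as acylcarnitine and shortened in a cycle that yields acetyl-CoA, from which ketone bodies are made. Very long chains are shortened first in peroxisomes, and omega-oxidation by the Cyp4a enzymes provides a side path. Ppara, with coactivators such as Ppargc1a, is known to switch on many genes of these steps, and hepatocytes near the portal vein are known for higher oxidation than those near the central vein.

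The matrices held 72934861 to 77617520 unique molecular identifiers (UMIs) per library, and 8494 ND nuclei and 8921 and 10921 nuclei from STZ-HFHC 1 and 2 were kept. Between 20 and 27 barcodes were shared by any 2 libraries. Nuclei were clustered without the 33 genes, and 8 of 24 clusters were hepatocyte-like by marker genes, with 5427 ND nuclei and 3026 and 4789 nuclei from STZ-HFHC 1 and 2. Their median depth was 4035, 7886.5 and 6543 UMIs. ND and STZ-HFHC hepatocyte-like nuclei shared almost no cluster. Clusters 1, 15 and 17 held those of ND, and clusters 2, 3, 8 and 13 nearly all those of the STZ-HFHC mice. Cluster 8 had 3 of 9 cholangiocyte markers raised against the other clusters (cholangiocyte sum 489 and 277 CPM in STZ-HFHC 1 and 2, against 306 and 218 CPM in cluster 2), with Krt19, Krt7, Epcam and Cftr at or below 0.208 CPM in it, and the part of such nuclei in the results was not tested beyond leaving out cluster 8. None of the 10 hepatocyte markers was raised there by the same measure. Cluster 15 alone met the hepatocyte list, with 6 of 10 markers raised. Clusters 2, 13 and 17 were named by a zone list, with 1, 0 and 1 hepatocyte markers raised. Clusters 1, 3, 8 and 23 were named by a looser second step, with 3, 0, 0 and 0 raised. Cluster 3 had the T cell gene Themis among its 10 leading genes, and some of the results below are also given without this cluster. Themis was at 27.1, 259 and 329 CPM in the hepatocyte-like nuclei of ND, STZ-HFHC 1 and STZ-HFHC 2. Of the 11 T or NK markers, 6 were higher in both STZ-HFHC mice than in ND, and 4 were lower in both. Besides Themis, the higher ones included Cd247, at 5.65, 10.0 and 16.2 CPM. The lower ones included the T cell receptor gene Cd3e, at 0.465, 0.378 and 0.425 CPM. The part of Themis-bearing nuclei in the results was not tested beyond leaving out cluster 3. Of 10 hepatocyte markers, 8 were lower in both STZ-HFHC mice than in ND, 1 was higher in both, and none was at 0. Their sum was 21483 CPM (the UMIs of a gene per 1000000 UMIs of the same nuclei) in ND and 16367 and 17772 CPM in STZ-HFHC 1 and 2, and its part in the differences below was not tested. Hepatocyte RNA was also abundant in all other classes, as described at the end.

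The first question was which of these genes differed in hepatocyte-like nuclei between mice with MASH-related fibrosis and the ND mouse. Long-chain acyl-CoA synthetase Acsl1 and the carnitine acyltransferases Crat and Crot fell by 1.72 to 2.20 on the log2 scale, and no gene of the set rose past the test. Of the 33 genes, 3 were lower and 0 higher at an adjusted p under 0.05 by the quasi-likelihood test of edgeR, beside 1.32% and 0.963% of the 15890 genes tested. At an unadjusted p under 0.05, 13 were lower and 1 was higher, beside 11.9% and 10.6% of all genes tested. The median log2 fold change over the 33 genes was -0.52, against 0.01 over all genes tested, and 29 of the 33 had a value below 0. Both STZ-HFHC mice were below ND for 22 of the 33 genes, against 35.1% of all genes tested, and above ND for 3, against 48.1%. The groups overlapped for the other 8 genes. The spread in this test comes from the 2 STZ-HFHC mice alone, and the ND mouse is assumed to vary like them.

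**Figure D1:**
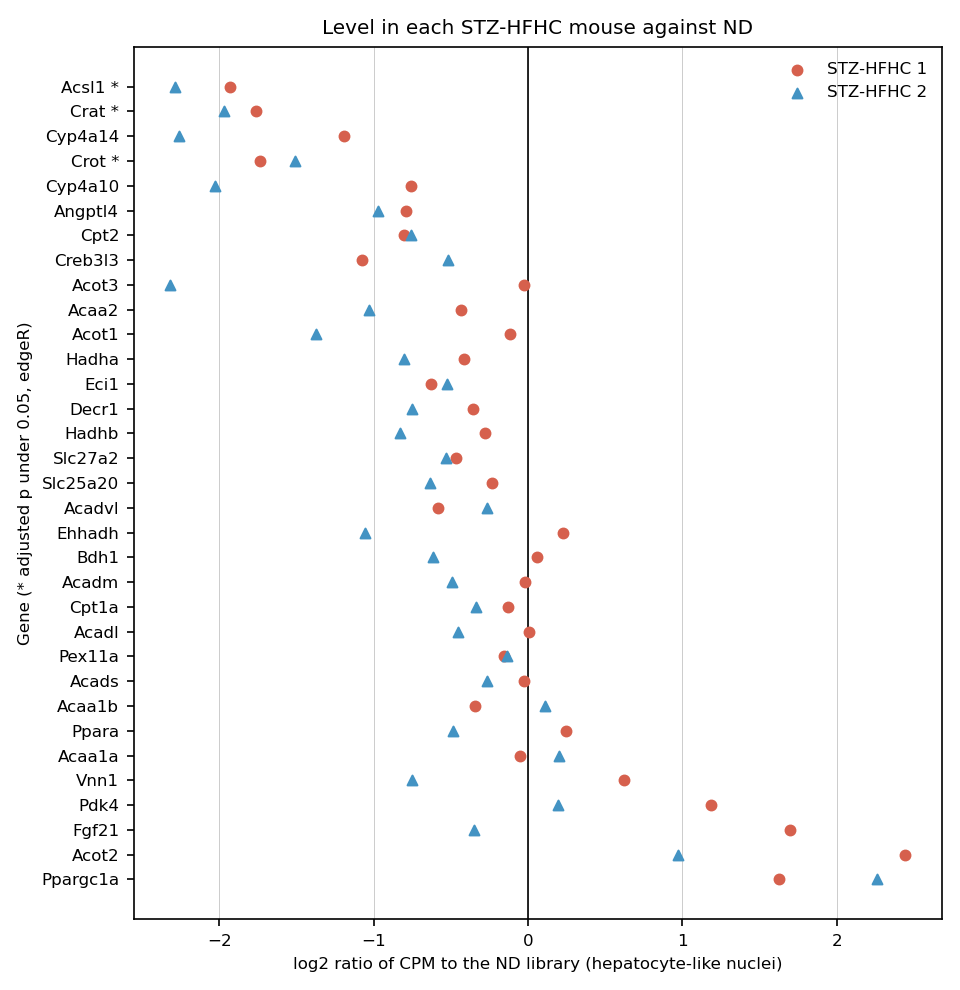
Log2 ratio of the CPM of each STZ-HFHC mouse (circles, STZ-HFHC 1; triangles, STZ-HFHC 2) to the ND library in hepatocyte-like nuclei, 1 row per gene, ordered by the fitted log2 fold change. Acsl1, Crat and Crot, marked by asterisks, passed the test, Ppargc1a lies highest in the fit, and the 2 mice lie far apart for Acot3, Fgf21 and Ehhadh.

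Acsl1, which activates long-chain fatty acids (GRCm38 as all positions here, chromosome 8, 46471037 to 46536051, plus strand), was at 3752 CPM in ND and at 984 and 769 CPM in STZ-HFHC 1 and 2. ND was 3.81 and 4.88 times the level of the STZ-HFHC mice, and their own values lay close together. The fall was 2.20 on the log2 scale (log2 fold change -2.20, SE 0.254, adjusted p = 0.0248). Crat, which moves short acyl groups between CoA and carnitine (chromosome 2, 30400471 to 30415813, minus strand), was at 56.6 CPM in ND and at 16.7 and 14.5 CPM in STZ-HFHC 1 and 2. The log2 fold change of Crat was -1.96 (SE 0.220, adjusted p = 0.0231). Crot, the peroxisomal carnitine octanoyltransferase (chromosome 5, 8966033 to 8997324, minus strand), was at 974, 292 and 341 CPM in ND, STZ-HFHC 1 and STZ-HFHC 2. The log2 fold change of Crot was -1.72 (SE 0.205, adjusted p = 0.0272). For each of these 3 genes the gap to ND was many times the gap between the STZ-HFHC mice. The calls of all 3 were lost when UMI totals replaced the scaling factors of edgeR (adjusted p = 0.0593, 0.0587 and 0.0623 for Acsl1, Crat and Crot), when barcodes with over 5000 genes were kept (0.0646, 0.0735 and 0.0735), and when all nuclei were summed (0.0608, 0.0655 and 0.0635). Without the highest doublet scores, only the call of Crot was lost (adjusted p = 0.0506), and without cluster 3 or without cluster 8 none of the 3 was. Over all alternatives the adjusted p lay between 2.79e-17 and 0.0646 for Acsl1, 1.18e-10 and 0.0735 for Crat, and 4.30e-12 and 0.0735 for Crot.

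Reference windows are given for Acsl1 and Crot because both passed the test, for Ppargc1a because it had the highest fitted fold change, and for Cpt1a because it sets the rate of entry into the pathway. Sequences are from RefSeq on GRCm38.p6, 250 bases before to 50 after the annotated start, read on the strand of the gene. Of the 33 genes, 26 had an entry. Those without one included Crat, which also passed the test, and Cyp4a10 and Cyp4a14. Capitals mark the half-site AGGTCA, or TGACCT where it lies on the other strand, the unit that nuclear receptors of the Ppara kind read in pairs.
Acsl1, first start, chr8:46470787-46471086, plus strand: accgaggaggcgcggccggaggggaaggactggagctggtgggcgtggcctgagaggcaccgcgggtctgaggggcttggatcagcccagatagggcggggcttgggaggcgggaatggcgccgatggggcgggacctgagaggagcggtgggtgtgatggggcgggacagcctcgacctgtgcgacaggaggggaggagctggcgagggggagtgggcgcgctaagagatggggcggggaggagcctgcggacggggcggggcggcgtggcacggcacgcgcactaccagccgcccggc
Acsl1, second start, chr8:46490716-46491015, plus strand: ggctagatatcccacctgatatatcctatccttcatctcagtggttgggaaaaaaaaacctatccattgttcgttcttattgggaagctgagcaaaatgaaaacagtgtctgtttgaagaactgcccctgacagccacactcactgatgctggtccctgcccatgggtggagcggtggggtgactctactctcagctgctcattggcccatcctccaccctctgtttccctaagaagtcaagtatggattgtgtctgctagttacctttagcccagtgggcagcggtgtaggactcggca
Crot, chr5:8997097-8997396, minus strand: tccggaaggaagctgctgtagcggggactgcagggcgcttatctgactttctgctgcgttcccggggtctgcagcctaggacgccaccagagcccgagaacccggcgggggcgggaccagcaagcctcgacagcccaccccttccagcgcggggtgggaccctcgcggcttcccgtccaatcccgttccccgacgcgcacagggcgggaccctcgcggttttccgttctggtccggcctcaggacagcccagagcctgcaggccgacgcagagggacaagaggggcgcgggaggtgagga
Ppargc1a, chr5:51567676-51567975, minus strand: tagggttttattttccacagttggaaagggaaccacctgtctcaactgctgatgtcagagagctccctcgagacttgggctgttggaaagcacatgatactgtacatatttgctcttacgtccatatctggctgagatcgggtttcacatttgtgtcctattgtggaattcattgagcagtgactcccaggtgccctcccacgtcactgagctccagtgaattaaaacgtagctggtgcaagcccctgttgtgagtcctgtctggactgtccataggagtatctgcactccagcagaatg
Cpt1a, chr19:3323051-3323350, plus strand: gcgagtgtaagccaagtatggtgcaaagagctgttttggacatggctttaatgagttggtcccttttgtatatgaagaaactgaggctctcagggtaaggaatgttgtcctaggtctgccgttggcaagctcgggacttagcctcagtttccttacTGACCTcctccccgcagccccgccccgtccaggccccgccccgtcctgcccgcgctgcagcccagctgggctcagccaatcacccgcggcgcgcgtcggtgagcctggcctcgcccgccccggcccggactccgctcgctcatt

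The Cpt1a window held the half-site AGGTCA once, and the windows of Acsl1, Crot and Ppargc1a did not hold it. Over both strands, the half-site was found in windows of 6 of the 26 genes (Acadm, Acadvl, Acot3, Cpt1a, Creb3l3 and Slc27a2). By window, it was in 7 of the 30 windows of these 26 genes, beside 16.3% of all windows. The paired form AGGTCANAGGTCA was in none of the windows of these genes and in 0.0396% of all windows, and the looser AGGNCANAGGNCA was in none and in 0.381%. Each AGGTCANAGGTCA match holds 2 copies of the half-site and is itself a match of the looser form.

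All 6 genes for fatty acid activation and entry were lower in both STZ-HFHC mice than in ND, beside 35.1% of all genes tested. The median log2 fold change of the 6 was -0.74. Acsl1 and Crat passed the test. Cpt1a, the outer membrane carnitine palmitoyltransferase that sets the rate of entry (chromosome 19, 3322334 to 3385733), was at 569.5 CPM in ND and at 520 and 450 CPM in STZ-HFHC 1 and 2. These values lay close together, with a log2 fold change of -0.33 (SE 0.210, adjusted p = 0.392). Its inner membrane partner Cpt2 was at 77.97, 44.6 and 46.1 CPM, with an adjusted p of 0.0806. The carnitine carrier Slc25a20 was at 195, 166 and 125 CPM, and the fatty acid transporter and synthetase Slc27a2 at 759, 548 and 525 CPM, both with the ND mouse highest. Their adjusted p values were 0.255 and 0.164.

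Of the 9 enzymes of the mitochondrial cycle, none passed the test, and the log2 fold changes lay between -0.80 and -0.25. For 8 of the 9 both STZ-HFHC mice were below ND, beside 35.1% of all genes tested. The 4 acyl-CoA dehydrogenases, which take the first step for very long, long, medium and short chains, had the values nearest 0 of this group. Acadm was at 256, 253 and 182 CPM in ND, STZ-HFHC 1 and STZ-HFHC 2, Acadl at 93.0, 93.3 and 68.1, and in both genes STZ-HFHC 1 lay near ND and STZ-HFHC 2 below. Acadvl was at 30.4, 20.4 and 25.3 CPM and Acads at 23.8, 23.3 and 19.8 CPM. The subunits of the trifunctional protein, Hadha and Hadhb, were at 208, 156 and 119 CPM and at 120, 98.4 and 67.2 CPM. The thiolase Acaa2, which releases acetyl-CoA, was at 221, 163 and 108 CPM, with the largest value of this group on the log2 scale (-0.80, SE 0.279, adjusted p = 0.181). Decr1 and Eci1, which handle unsaturated chains, were at 150, 117 and 89.4 CPM and at 55.0, 35.6 and 38.2 CPM.

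Of the 5 peroxisomal genes, Crot alone passed the test. The bifunctional enzyme Ehhadh was at 159 CPM in ND and at 186 and 76.6 CPM in STZ-HFHC 1 and 2, so that ND lay between the STZ-HFHC mice. The thiolases Acaa1a and Acaa1b are near-identical copies among which reads may be split, and their values are uncertain. They were at 58.8, 56.6 and 67.6 CPM and at 622, 489 and 670 CPM. Pex11a, which takes part in peroxisome division, was nearly level at 87.9, 79.1 and 80.0 CPM (log2 fold change -0.25, SE 0.188).

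The omega-oxidation enzymes Cyp4a14 and Cyp4a10 were lower in both STZ-HFHC mice than in ND and did not pass the test. Cyp4a14 (chromosome 4, 115486200 to 115496142) was at 1583 CPM in ND and at 692 and 330 CPM in STZ-HFHC 1 and 2 (log2 fold change -1.73, SE 0.426, adjusted p = 0.101). Cyp4a10 (chromosome 4, 115518264 to 115533649) was at 494, 292 and 121 CPM in the same order (log2 fold change -1.36, SE 0.484, adjusted p = 0.187). In both genes STZ-HFHC 1 was more than 2 times STZ-HFHC 2. They belong to a family of close copies, so the split of reads between them is uncertain. The same holds for the acyl-CoA thioesterases Acot1, Acot2 and Acot3, neighbors on chromosome 12. Acot2 (83987861 to 83993873), the mitochondrial one, was at 1.82 CPM (95% interval 1.34 to 2.42, 47 UMIs) in ND, against 9.90 (8.74 to 11.2) and 3.57 (2.98 to 4.25) in STZ-HFHC 1 and 2. Both STZ-HFHC mice were above ND, by 5.44 and 1.96 times, but far from each other (log2 fold change 1.78, SE 0.714, adjusted p = 0.223). Acot1 was at 16.0, 14.8 and 6.18 CPM and Acot3 at 4.38, 4.31 and 0.879 CPM, each with STZ-HFHC 1 near ND. Vnn1, a pantetheinase and responder to Ppara, was at 9.02, 13.9 and 5.36 CPM, with ND in the middle.

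Of the regulators, Ppargc1a, a coactivator of Ppara and of gluconeogenic genes (chromosome 5, 51454250 to 51567726), was at 118 CPM in ND and at 364 and 565 CPM in STZ-HFHC 1 and 2. Both STZ-HFHC mice were above ND, by 3.08 and 4.79 times. Its log2 fold change of 1.87 (SE 0.328) missed the threshold at an adjusted p of 0.0550, and passed it in DESeq2 and after thinning to 1000 UMIs per nucleus (adjusted p = 6.78e-07 and 0.0351). It also passed without cluster 8 (adjusted p = 0.0310). Over all alternatives its adjusted p lay between 6.55e-11 and 0.122. Ppara itself (chromosome 15, 85734983 to 85802819) was at 1653 CPM in ND and at 1962 and 1181 CPM in STZ-HFHC 1 and 2, with ND between the other two (log2 fold change -0.18, SE 0.349, adjusted p = 0.791). Creb3l3, a membrane-bound transcription factor of the fasting liver, was at 353, 167 and 246 CPM (log2 fold change -0.87, SE 0.266, adjusted p = 0.147).

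Of the secreted factors and the fuel switch, Angptl4, an inhibitor of lipoprotein lipase (chromosome 17, 33773750 to 33781830), was at 71.8, 41.6 and 36.6 CPM in ND, STZ-HFHC 1 and STZ-HFHC 2 (log2 fold change -0.98, SE 0.206, adjusted p = 0.0760). Fgf21, a hormone of the fasting liver (chromosome 7, 45613886 to 45615490), was at 4.76 CPM (3.96 to 5.68) in ND, against 15.4 (14.0 to 16.99) and 3.74 (3.13 to 4.44) in STZ-HFHC 1 and 2. Only STZ-HFHC 1 stood above ND, and the log2 fold change of 0.90 had an SE of 0.828 (adjusted p = 0.553). Pdk4, a kinase that inhibits pyruvate dehydrogenase (chromosome 6, 5483351 to 5496309), was at 9.88 CPM (8.70 to 11.2), 22.5 (20.7 to 24.4) and 11.3 (10.2 to 12.5). Its 2 STZ-HFHC values differed by more than their counting intervals (log2 fold change 0.67, SE 0.460, adjusted p = 0.430). Without cluster 8, where Pdk4 was highest and which held 1191 and 242 nuclei from STZ-HFHC 1 and 2, the log2 fold change was -0.01, and that of Fgf21 was 0.21. Bdh1, which interconverts the ketone bodies acetoacetate and 3-hydroxybutyrate, was at 111, 115 and 72.4 CPM, with ND next to STZ-HFHC 1 (log2 fold change -0.34, SE 0.307).

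**Figure D2:**
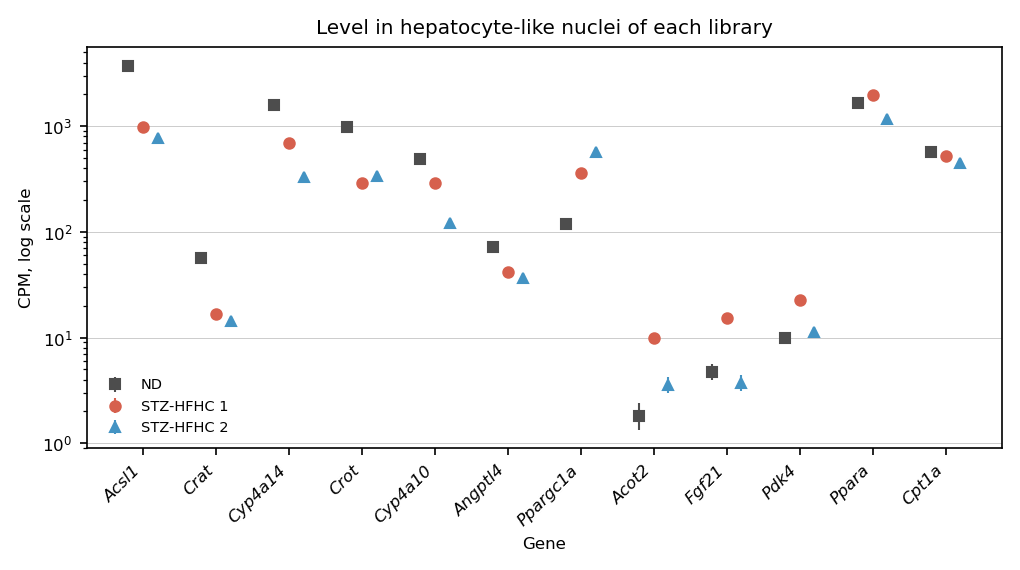
CPM on a log axis in hepatocyte-like nuclei of each library for 12 genes, the 6 with the lowest fold change, the 4 with a positive one, Ppara and Cpt1a. Bars are 95% exact Poisson intervals of counting error and are mostly smaller than the symbols. ND stands above both STZ-HFHC mice for Acsl1, Crat, Cyp4a14, Crot, Cyp4a10 and Angptl4 and below both for Ppargc1a, Acot2 and, with cluster 8 included, Pdk4.

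By DESeq2, 5 of the 33 genes were lower, beside 3.53% of all genes, and 1 was higher, beside 3.03%. The 2 further lower genes were Cyp4a14 and Angptl4, and the higher one was Ppargc1a. With no filter on low counts, edgeR called 13 of the 33 lower and 2 higher, beside 6.76% and 4.85% of all genes. With UMI totals as library sizes, with barcodes of over 5000 genes kept, or with all nuclei in place of the hepatocyte-like ones, 0 were called in either direction, beside at most 0.277% of all genes in either direction.

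The STZ-HFHC mice differed from each other in a block of these genes. STZ-HFHC 1 was above STZ-HFHC 2 for 24 of the 33 genes, beside 48.7% of all genes tested, and for all 6 of the omega-oxidation, thioesterase and pantetheinase genes, by 2.10 to 4.90 times. Ehhadh (2.43 times), Fgf21 (4.12 times), Ppara (1.66 times) and Bdh1 (1.59 times) were on the same side. Ppargc1a, Creb3l3 and Acaa1b lay on the other side, with STZ-HFHC 1 at 0.643, 0.680 and 0.730 times the level of STZ-HFHC 2. Within single clusters the gap held for some of these genes and not for others. Cyp4a10 was 2.88, 2.81, 1.64 and 1.84 times higher in STZ-HFHC 1 in clusters 2, 3, 8 and 13, and Ehhadh 2.27, 2.40, 2.20 and 1.69 times. Acot2 was 1.63, 1.81, 0.888 and 3.17 times and Acot1 3.07, 2.53, 1.07 and 1.48 times the level of STZ-HFHC 2, with no gap or the opposite one in cluster 8. For Pdk4, at 1.99 times over all hepatocyte-like nuclei, the ratios were 1.55, 0.851, 0.781 and 1.15. Of the 33 genes, 24, 24, 19 and 22 were higher in STZ-HFHC 1 than in STZ-HFHC 2 in these clusters. The share of all genes was not counted within single clusters, so these counts have no background beside them. With 1 library per mouse, these gaps are descriptions with no test.

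Among hepatocyte-like nuclei of the STZ-HFHC mice, levels differed between clusters. Cluster 2 was periportal by its markers and cluster 13 pericentral, cluster 3 was of neither kind, and cluster 8, led by genes such as Vmn2r3, Nrg1 and Areg, held 1191 and 242 nuclei from STZ-HFHC 1 and 2. Cluster 2 was the one with low levels for most of the 33 genes. Cluster 8 was above it in both mice for 22 genes and below it for 6, beside 49.3% and 19.9% of all genes tested, cluster 3 above it for 28 and below it for 4, beside 38.2% and 27.2%, and cluster 13 above it for 22 and below it for 5, beside 35.1% and 30.9%. Against cluster 3, cluster 8 was above for 9 genes and below for 15, beside 45.9% and 20.2%. Pdk4 was at 4.05, 10.9, 22.9 and 41.9 CPM in clusters 2, 3, 13 and 8 of STZ-HFHC 1, and at 2.62, 12.8, 19.9 and 53.7 CPM in those of STZ-HFHC 2. The order of the 4 clusters was the same in both mice. Acot2 was at 3.41, 6.85, 7.43 and 16.99 CPM and at 2.09, 3.79, 2.34 and 19.1 CPM in the same order, with cluster 8 far above the others. Fgf21 was at 6.97, 10.3, 6.29 and 27.5 CPM and at 2.09, 4.66, 1.87 and 16.0 CPM. Angptl4 was also highest in cluster 8, at 47.7 and 59.2 CPM, against 34.2 and 31.4 CPM in cluster 2.

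Ppargc1a went the other way. It was at 721 and 860 CPM in cluster 2 of STZ-HFHC 1 and STZ-HFHC 2, and at 209 and 236 CPM in cluster 8, still above the 94.6 to 124 CPM of the ND clusters. Acsl1 was between 769.7 and 1210 CPM in the 4 clusters of STZ-HFHC 1 and between 445 and 958 CPM in those of STZ-HFHC 2, all below the 3018 to 3971 CPM of the ND clusters 1, 15 and 17. Crot was between 218 and 430 CPM in the STZ-HFHC clusters and between 932 and 991 CPM in those of ND. For these 3 genes the ranges of the named ND and STZ-HFHC clusters did not overlap.

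**Figure D3:**
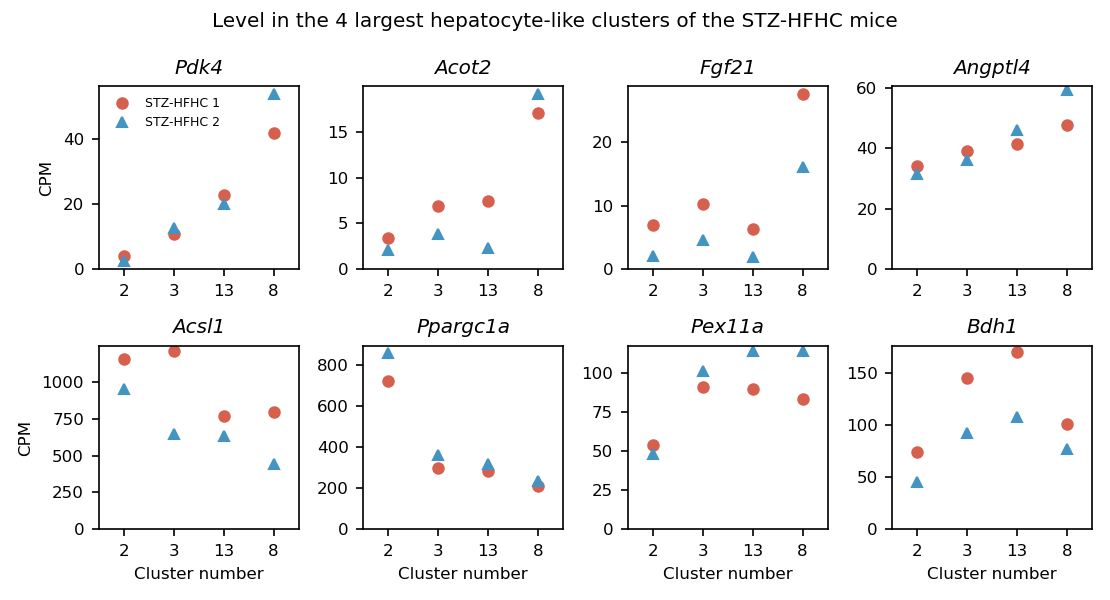
CPM of 8 genes in the 4 largest hepatocyte-like clusters of STZ-HFHC 1 (circles) and STZ-HFHC 2 (triangles), with cluster 2 periportal, 13 pericentral, and 3 and 8 of neither kind. Each axis starts at 0. Pdk4, Acot2, Fgf21 and Angptl4 are highest in cluster 8 of both mice, and Ppargc1a is highest in cluster 2.

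The share of nuclei with a UMI was set beside the levels after each nucleus was thinned to 1000 UMIs. Acsl1 was detected in 94.0% of hepatocyte-like nuclei of ND (95% interval 93.3 to 94.6), 52.1% of STZ-HFHC 1 (50.3 to 53.9) and 47.2% of STZ-HFHC 2 (45.8 to 48.6). Unthinned, the shares were 98.6%, 91.8% and 90.5%. In T or NK-like nuclei, a class that should lack the hepatocyte gene Cyp4a14, Acsl1 was in 91.3%, 33.5% and 35.2% of thinned nuclei, with median depths of 2986.5, 1298 and 1498.5 UMIs. Ppargc1a was detected in 11.2%, 25.6% and 37.8% of hepatocyte-like nuclei and in 9.78%, 17.9% and 36.6% of T or NK-like ones. Cyp4a14 was in 77.4%, 44.2% and 25.1% and in 69.6%, 34.7% and 16.2%, respectively. The shares in hepatocyte-like nuclei were above those in T or NK-like nuclei for these 3 genes, but much of each share is at the level of that background. In ND the shares of all 3 genes lay within the interval of the T or NK-like share (83.6 to 96.2% for Acsl1, 59.1 to 78.7% for Cyp4a14 and 4.57 to 17.8% for Ppargc1a), and in STZ-HFHC 2 that of Ppargc1a did (31.0 to 42.5%). For 16 of the 33 genes the interval of both STZ-HFHC mice lay below that of ND, and for 1, Ppargc1a, above it. The same count over all genes was not made. These intervals take nuclei as units and leave out the spread between mice. Shallower nuclei were left out, 226, 27 and 33 hepatocyte-like and 24, 86 and 68 T or NK-like ones.

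The second question was where along the axis from portal to central vein the genes were higher. Each hepatocyte-like nucleus was scored by 10 periportal and 9 pericentral markers, and the 25% of nuclei at each end of the score were compared within the mouse, with 1357, 757 and 1198 nuclei per group. The sum of the periportal markers was 3395 CPM in the periportal and 345 in the pericentral group of ND, 2889 and 198 for STZ-HFHC 1, and 4297 and 361 for STZ-HFHC 2. Depth was nearly equal, with medians of 3997 and 4076, 8082 and 8134, and 6989 and 6574.5 UMIs. The score is a range without a gap, and 195 to 452 nuclei per library and group lay near its limit. Of the 33 genes, 3 were higher and 8 lower in the periportal group by edgeR with the library as a block, beside 5.05% and 5.94% of 14507 genes. The median log2 difference over the 33 was -0.18, against 0.00 over all genes tested.

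Ppargc1a was the most periportal, at 150 and 92.0 CPM in the periportal and pericentral groups of ND, 655 and 262 for STZ-HFHC 1, and 920 and 301 for STZ-HFHC 2. Its log2 difference was 1.27 (SE 0.159, adjusted p = 0.00185), in the same direction in 3 of 3 mice. Acsl1 was at 4232 and 3044 CPM, 1157 and 882 CPM, and 1043 and 626 CPM (log2 difference 0.57, SE 0.106, adjusted p = 0.0120). Creb3l3 was at 413 and 300 CPM in ND, 193 and 151 for STZ-HFHC 1, and 259 and 230 for STZ-HFHC 2 (log2 difference 0.37, SE 0.083, adjusted p = 0.0263). Fgf21 had a larger log2 difference than Creb3l3 but did not pass (0.42, SE 0.323, adjusted p = 0.491), at 6.50 and 2.66 CPM in ND, 10.2 and 7.45 for STZ-HFHC 1, and 1.67 and 2.99 for STZ-HFHC 2, the last in the other direction. Without cluster 3 its log2 difference was -0.012.

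Pdk4 was the most pericentral, at 4.84 and 19.1 CPM in the periportal and pericentral groups of ND, 7.75 and 18.9 for STZ-HFHC 1, and 2.30 and 20.8 for STZ-HFHC 2. Its log2 difference was -2.03 (SE 0.289, adjusted p = 0.00337). Pex11a was at 61.7 and 128 CPM, 56.9 and 94.99 CPM, and 46.8 and 118 CPM (log2 difference -1.01, SE 0.110, adjusted p = 0.00089). Acot2, with 25 to 81 UMIs per library, was at 1.21 and 2.66 CPM, 3.65 and 8.18 CPM, and 1.98 and 3.79 CPM (log2 difference -1.04, SE 0.234, adjusted p = 0.0267), and did not pass without cluster 8 (-0.775, adjusted p = 0.117). Acot3, with 19 to 63 UMIs, was at 3.63 and 5.16 CPM, 2.92 and 6.28 CPM, and 0.209 and 1.95 CPM and did not pass (log2 difference -1.07, SE 0.361, adjusted p = 0.112). Vnn1 was at 6.50 and 12.05 CPM, 9.21 and 15.8 CPM, and 3.13 and 7.70 CPM (log2 difference -0.92, SE 0.165, adjusted p = 0.0102). The other pericentral genes were Cyp4a10 (-0.74), Ehhadh (-0.58), Ppara (-0.45) and Acaa1a (-0.37), each lower in the periportal group of 3 of 3 mice. Cpt1a had a log2 difference of -0.05 (SE 0.093, adjusted p = 0.795). Of the 11 calls, those of Ppargc1a, Pdk4 and Pex11a remained in all 3 fits that left out 1 mouse. Without STZ-HFHC 2, 1 gene was higher and 2 were lower, without ND 3 were higher and 15 lower, and without STZ-HFHC 1 the counts were 2 and 6. The share of all genes called in each of these 3 fits is not given, so their counts have no background beside them. Without the library as a block, 0 of the 33 were called in either direction, beside 0.131% and 0.290% of all genes.

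The zone differences of some genes were not the same in ND and STZ-HFHC. In a test of the difference itself, added after the data had been seen, 5 of the 33 genes had a lower periportal to pericentral ratio in the STZ-HFHC mice than in ND, beside 1.18% of all genes, and 1 a higher one, beside 1.28%. The spread in this test comes from the 2 STZ-HFHC mice alone, and ND gives 1 ratio per gene. Of the 6 genes that passed, Bdh1 showed the largest shift. It was at 108 and 103 CPM in the periportal and pericentral groups of ND, level with each other, at 74.8 and 168 CPM in STZ-HFHC 1, and at 43.7 and 113 CPM in STZ-HFHC 2. Its log2 ratio was 0.07 in ND, against -1.17 and -1.37 in STZ-HFHC 1 and 2. The ketone enzyme Bdh1 was thus pericentral in both STZ-HFHC mice and in neither zone in ND (difference -1.34, SE 0.151, adjusted p = 0.000308). Cyp4a14 went from a log2 ratio of 0.15 in ND to -0.62 and -1.13 (difference -1.03, SE 0.172, adjusted p = 0.00559). Cyp4a10 went from -0.20 to -0.80 and -1.38 (difference -0.88, adjusted p = 0.0175), Hadhb from 0.12 to -0.53 and -0.53 (difference -0.65, adjusted p = 0.0311), and Crot from 0.14 to -0.36 and -0.52 (difference -0.58, adjusted p = 0.0406). Ppargc1a went from 0.70 to 1.32 and 1.61 (difference 0.77, adjusted p = 0.0295). By DESeq2 only Bdh1 and Cyp4a14 passed, and after thinning to 2000 UMIs only Bdh1 (adjusted p = 0.0115 in each for Bdh1, the highest of its alternatives, with 3.16e-12 the lowest). The sum of 10 hepatocyte markers was 22444 and 17670 CPM in the periportal and pericentral groups of ND, 20697 and 13517 CPM in those of STZ-HFHC 1, and 21758 and 13247 CPM in those of STZ-HFHC 2, and its part in these shifts was not tested.

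**Figure D4:**
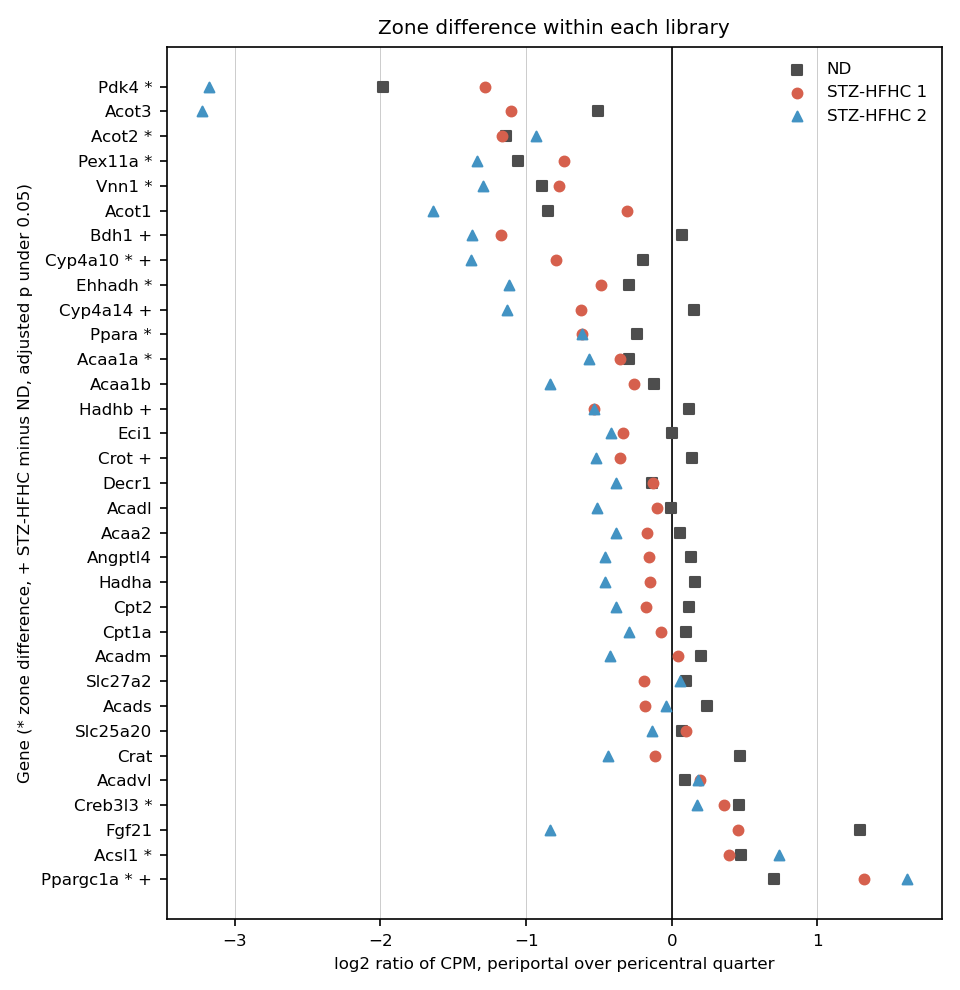
Log2 ratio of CPM, periportal over pericentral group of hepatocyte-like nuclei, in ND (squares), STZ-HFHC 1 (circles) and STZ-HFHC 2 (triangles), 1 row per gene. Asterisks mark a zone difference and plus signs a difference of STZ-HFHC from ND at an adjusted p under 0.05 in edgeR. Ppargc1a lies right of 0 in all 3 mice, Pdk4 and Pex11a lie left of it, and for Bdh1 the 2 STZ-HFHC mice lie apart from ND.

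A wider list of 90 other genes of fatty acid oxidation, ketone metabolism and Ppara response was set beside the 33. Of the 85 that passed the filter on low counts, 2 were higher and 3 lower in STZ-HFHC, beside 0.963% and 1.32% of all genes tested, with a median log2 fold change of -0.33. The fatty acid transporter Cd36 was at 22.2 CPM in ND and at 307 and 211 CPM in STZ-HFHC 1 and 2 (log2 fold change 3.44, SE 0.332, adjusted p = 0.0175). Lpin1, a phosphatidate phosphatase and coactivator, was at 89.1, 421 and 548 CPM (log2 fold change 2.34, SE 0.264, adjusted p = 0.0235). Hsd17b10, a mitochondrial dehydrogenase, fell from 22.9 CPM to 5.44 and 5.81 (log2 fold change -2.13, SE 0.262, adjusted p = 0.0298), and the retinol saturase Retsat from 51.2 to 16.1 and 14.0 (-1.87, SE 0.222, adjusted p = 0.0269). Etfa, which passes electrons from the dehydrogenases, fell from 369 to 185 and 163 CPM (-1.19, SE 0.192, adjusted p = 0.0494). Without cluster 3, 1 gene of the list was lower and 2 were higher, with no share of all genes given. The call of Etfa was also lost without cluster 8 (edgeR adjusted p = 0.0588).

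The fatty acid binding protein Fabp1 was at 308 CPM in ND and at 189 and 127 CPM in STZ-HFHC 1 and 2. ND stood above both, without passing the test (log2 fold change -1.06, SE 0.274, adjusted p = 0.110). The lipid droplet gene Plin2 was nearly level at 170, 176 and 140 CPM in the same order (adjusted p = 0.598). Along the zones, 7 of the 84 listed genes tested were periportal and 16 pericentral, beside 5.05% and 5.94% of all genes tested.

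In the other classes these genes stood where hepatocyte RNA stood. The median ratio of 10 hepatocyte markers, class over hepatocyte-like nuclei of the same library, was 0.329 to 0.923 over 8 other classes and 3 libraries. A median of 1.00 times this ratio was found over 618 values of the 33 genes with at least 10 UMIs, and 0 of them exceeded 3 times it. The number above 2 times was 16. The highest was Acot2 in stellate or fibroblast-like nuclei, at 1.64, 2.65 and 2.29 times the marker ratio in ND, STZ-HFHC 1 and STZ-HFHC 2. Levels in other cell types beyond what the hepatocyte markers showed were thus not detectable at this limit and depth. The differences between the libraries carried over. Acsl1, Crat, Crot, Cyp4a10 and Cyp4a14 were lower in both STZ-HFHC mice than in ND in 8 of 8 other classes. Ppargc1a was higher in 8 of 8. Also lower in 8 of 8 were Cpt1a, Cpt2, Hadhb, Acaa2, Angptl4, Slc27a2, Creb3l3 and Eci1, none past the test in hepatocyte-like nuclei. The same count over all genes was not made. For Acsl1 the ratio of an STZ-HFHC mouse to ND was 0.0888 to 0.265 in these classes, and for Ppargc1a 1.03 to 4.47.

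**Figure D5:**
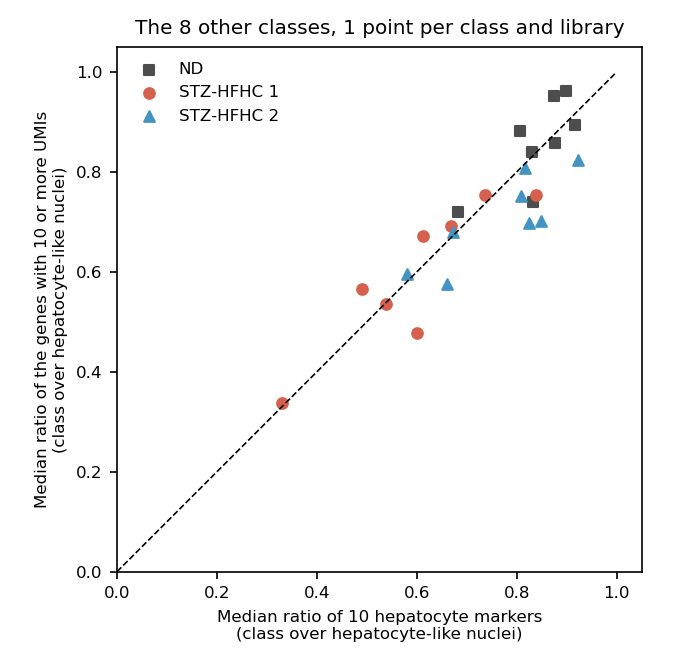
Median ratio of the genes with at least 10 UMIs (vertical axis) against the median ratio of 10 hepatocyte markers (horizontal axis), each as the level in a class over that in hepatocyte-like nuclei of the same library, 1 point per class and library. Points lie along the dashed line of equal ratios, with the ND library mostly at the upper end.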

How the data were processed

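Male C57BL/6 J mice were sampled as frozen liver, 1 ND and 2 STZ-HFHC, with 1 sNuc-Seq library each. The authors deposited raw counts of UMIs for each gene in each barcode, made with Cell Ranger 7.0.1 on mm10 per the submitters' processing notes and not normalized. Whether intronic reads were counted is not given in the sources used here, and no free RNA was removed here. The genes and lists were chosen with earlier results of these data known. All 33 genes are named. The 6 largest rises and falls, Ppara, Cpt1a, the 4 largest zone differences each way, and Fabp1, Cd36, Plin2 and the largest calls of the wider list are given in full, except items that are not reported here.

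Barcodes with 200 to 5000 genes and no more than 5% of UMIs from mitochondrial genes entered clustering in Scanpy 1.11.5 (2000 variable genes, 30 components, 15 neighbors, Leiden resolution 1). The rule that named clusters from marker lists was set after clusters had been seen. A marker counted at 2 times the median of the other clusters, with a UMI in 5% of nuclei, and a class needed 3 markers and 40% of its list. Clusters short of that were hepatocyte-like with 40% of a zone list, or with 3 hepatocyte markers at 1.2 times the non-hepatocyte clusters of their library. Scrublet's automatic threshold marked 1 nucleus and did not work, so doublets were kept, and the highest 8% of scores were left out as an alternative.

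UMI sums per library were tested with edgeR 4.0.16 (quasi-likelihood, TMM, at least 30 UMIs, two-sided, Benjamini-Hochberg over all genes tested, threshold 0.05), with DESeq2 1.42.0 as an alternative. A sum weights deep nuclei more. Gene coordinates are from GENCODE M21 (GRCm38), which held 33 of the 33 genes. Intervals are 95%, exact Poisson or Clopper-Pearson, and cover counting error only. On simulated counts over 15890 genes, 0, 7, 42 and 49 of 50 genes changed 1.5, 2, 4 and 8-fold were recovered in the comparison of STZ-HFHC with ND.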

Additional observations from a re-analysis of the deposited data

Results flagged for a closer look

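The following genes had a periportal to pericentral log2 ratio that differed between the STZ-HFHC mice and ND, by edgeR's test of the difference itself. Values are STZ-HFHC minus ND, with 2 STZ-HFHC mice and 1 ND mouse, and all STZ-HFHC mice lay on the same side of ND for each gene.

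Among the 33 genes, the difference was -1.34 for the ketone enzyme Bdh1, -1.03 for Cyp4a14, -0.88 for Cyp4a10, -0.65 for Hadhb and -0.58 for Crot, and 0.77 for the coactivator Ppargc1a. Among the named genes of the wider list, it was -0.84 for Fabp1, -0.84 for Lpin1 and 1.89 for Cd36. Cd36 was at 9.38 and 49.9 CPM in the periportal and pericentral groups of ND, at 225 and 323 CPM in STZ-HFHC 1 and at 164 and 233 CPM in STZ-HFHC 2. The groups were too small to look for single samples far from the rest.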

How the results depend on the processing

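With 1 ND mouse, the comparison with STZ-HFHC rests on the spread between 2 mice, and changes of 2-fold were mostly not recovered in simulated counts, so a gene past no threshold is not shown to be equal. Free hepatocyte RNA, library codes and depth were not separated from the condition. No paired analysis was made, because ND and STZ-HFHC were different mice and the labels give no pairs. Each library was a block in the zone comparison.

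For STZ-HFHC against ND, the 33 genes gave 0 higher and 3 lower. DESeq2 gave 1 and 5, no filter on low counts 2 and 13, thinning to 1000 UMIs 1 higher, and library totals, no upper limit on genes and all nuclei 0 lower. The wider list gave 2 higher and 3 lower. Library totals gave 1 and 0, no filter 6 and 19, and no upper limit on genes and all nuclei 0 and 0. DESeq2 gave 13 lower, beside 3.53% of all genes, and thinning 7 lower. Of the wider list, 1 was lower both without the highest doublet scores and without cluster 3. The median of the 33 genes stayed between -0.64 and -0.42 under these settings and was -0.72 with no test without STZ-HFHC 1 and -0.33 without STZ-HFHC 2. Library totals moved the median of all genes by about 0.1. Acaa1a and Vnn1 then turned to 0.0785 and 0.0899, and Vnn1 to 0.1055 with no upper limit on genes. Without cluster 8, 1 of the 33 genes was higher, Acaa1a turned to 0.0419 and Pdk4 to -0.0094. No share of all genes is given for thinning or for the fits without the highest doublet scores, cluster 3 or cluster 8. Counts from those settings have no background beside them.

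In the zone comparison, 3 higher and 8 lower became 0 and 0 with no replicate block, 13 lower with no filter, and 1 to 3 higher and 2 to 15 lower when 1 mouse was left out. No share of all genes is given for the fits without 1 mouse or with no filter. Cpt1a turned to 0.0351 without STZ-HFHC 2 and 0.0597 without cluster 3, which also turned Fgf21 to -0.0120, and was -0.1451 without ND. For the difference between STZ-HFHC and ND, 1 higher and 5 lower became 0 and 2 by DESeq2, 0 and 3 with larger groups of nuclei at each end of the zone score and 0 and 1 after thinning to 2000 UMIs. The cause of these shifts was not tested. No share of all genes is given for these alternative settings of the zone difference, so their counts have no background beside them. Settings without cluster 3 or cluster 8 and the test of the zone difference were chosen after seeing the data.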
